A study of Mus musculus with 6 samples.

Results

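The miR-26 and miR-29 families were followed in mouse blastocysts that had been vitrified or kept fresh. Their members were taken by name, as the assays for miR-26 or miR-29 followed directly by a, b or c, without the assays for opposite hairpin arms that carry a # in their names. This gave 5 members, mmu-miR-26a, mmu-miR-26b, mmu-miR-29a, mmu-miR-29b and mmu-miR-29c, of 750 miRNA assays, and all 5 were on card A, which holds 375 of them. TaqMan Rodent MicroRNA cards A and B, which measure miRNAs by real-time PCR, were run on 6 pools of blastocysts, with 3 vitrified pools (V1, V2 and V3) and 3 fresh pools (F1, F2 and F3), each with 1 value per assay. The embryos of both groups came from superovulated females of the Kunming strain, an outbred Chinese mouse stock, that were 5 weeks old. The blastocysts were collected 92 to 94 h after hCG. Vitrified blastocysts were exposed to 10% ethylene glycol and 10% DMSO for 30 s, held in an open pulled straw with the solution EDFS30 for 25 s and plunged into liquid nitrogen. They were thawed in 0.5 M sucrose over 5 min and washed in CZB medium. Survival was scored 18 to 20 h after warming, by intact cell layers and a re-expanding cavity. The methods do not say whether fresh blastocysts were cultured for as long. Fresh blastocysts were not vitrified. Each pool held many embryos, so that a value is an average over inner cell mass and trophectoderm. The labels do not say whether the pools came from separate mothers, and p-values measure only the spread between these pools.

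A miRNA guides a silencing complex to messenger RNAs that pair with its seed, the bases near its 5′ end, and members of a family share that seed. The miR-29 family is known to target the de novo DNA methyltransferases as well as collagen and other extracellular matrix genes. Both families are known to target the TET enzymes, which oxidise 5-methylcytosine and start active demethylation, and miR-26 also targets the glycosylase TDG and the histone methyltransferase EZH2. The blastocyst is the stage at which DNA methylation, erased after fertilisation, begins to be laid down again.

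The mature sequences are shown because the seeds define the families and because single bases separate assays whose levels differed. They were read from RefSeq on GRCm38.p6, with the seed (bases 2 to 8) in capitals, and the 5p arm of miR-26 and the 3p arm of miR-29 were taken as the arms that the assay names denote.
mmu-miR-26a: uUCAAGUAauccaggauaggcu
mmu-miR-26b: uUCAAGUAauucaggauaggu
mmu-miR-29a: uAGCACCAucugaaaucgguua
mmu-miR-29b: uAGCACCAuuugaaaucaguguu
mmu-miR-29c: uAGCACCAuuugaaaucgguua

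Among 1679 mature mouse miRNAs of the RefSeq table, the seed UCAAGUA was found in 2, miR-26a and miR-26b, and the seed AGCACCA in 3, the 3 miR-29 members. Bases were compared from the 5′ end over the length of the shorter member. There miR-26a (22 bases) differed from miR-26b (21 bases) by C11U and C21U, and miR-29a differed from miR-29c, both of 22 bases, by C10U alone. The difference between miR-29a and miR-29b was C10U, G18A, U21G and A22U, and miR-29b is also longer, at 23 bases. The 3′ end of miR-29b is AGUGUU, a hexamer known to direct this miRNA to the nucleus. It was present in 12 of 1674 mature sequences (0.717%) and ended 2 of them. The mature forms of miR-26a and miR-29b come from a pair of loci each, so that their assays sum over both. The miR-26 hairpins lie within genes of the CTD small phosphatases, namely Mir26a-1 (mature form at chr9:119031811-119031832, plus strand) within Ctdspl, Mir26a-2 (chr10:126995543-126995564, plus strand) within Ctdsp2 and Mir26b (chr1:74394324-74394344, plus strand) within Ctdsp1. The miR-29 genes form 2 clusters. Mir29a (chr6:31062673-31062694) and Mir29b-1 (chr6:31063025-31063047) lie on the minus strand with 275 bases between their hairpins. Mir29b-2 (chr1:195037091-195037113) and Mir29c (chr1:195037600-195037621) lie on the plus strand within the long noncoding RNA gene A330023F24Rik, with 426 bases between their hairpins.

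The pools numbered 1 stood apart from the others. Wells with a Ct, the cycle at which the signal crossed the threshold, numbered 218 of 750 in V1 and 140 in F1, against 382 to 409 in the other 4 pools. The 8 assays for the miR-290 to miR-295 cluster, the defining miRNAs of the early mouse embryo, were undetermined in both V1 and F1, and 7 or 8 of them were determined in each of the other pools. Among those 4 pools the earliest Ct of these assays lay between 23.04 (V3) and 25.47 (V2). The mean Ct of U6, the small nuclear RNA used as reference, was between 16.59 and 17.82 on card A in all 6 pools. The other small RNA controls of card A came up late in the pools numbered 1. For snoRNA202 the raw Ct was 25.90 in V1 and 27.47 in F1, against 17.79 to 18.22 in the other pools, and that of snoRNA135 was 30.59 and 35.46, against 21.70 to 23.11. The control U87 had a Ct of 34.62 in V1 and none in F1, and Y1 had none in either. Values without the pools numbered 1 are therefore given beside the comparisons, and in such bulk samples fewer cells of a type and less RNA per cell cannot be told apart.

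The miR-26 family was represented by an abundant and a moderate member. The raw Ct of miR-26a was 29.91, 21.05 and 21.59 in V1, V2 and V3, and 34.40, 21.68 and 20.96 in F1, F2 and F3. In the pools numbered 2 and 3 it ranked between 4 and 11 among the card A assays ordered from the earliest Ct. The raw Ct of miR-26b was 30.91, 24.17 and 24.40 in the vitrified pools and 35.82, 24.35 and 23.94 in the fresh pools, with ranks of 44 to 49 in pools 2 and 3. Both assays came up late in the pools numbered 1, later in F1 than in V1, and the vitrified and fresh values of the remaining pools lay within 1 cycle of each other.

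The miR-29 members spanned a wider range. The raw Ct of miR-29a was 25.22, 21.29 and 21.56 in V1, V2 and V3, and 27.62, 21.13 and 20.32 in F1, F2 and F3, with ranks of 5 to 8 in pools 2 and 3. The raw Ct of miR-29c was 31.41, 24.27 and 25.44 in the vitrified pools and 34.55, 24.39 and 23.72 in the fresh pools. The miR-29b well was undetermined in V1 and F1, and its raw Ct was 28.52 and 28.47 in V2 and V3, and 28.88 and 28.17 in F2 and F3. The weakest of the 5 was miR-29b, with ranks of 125 to 137, and miR-29a was the member determined earliest in both pools numbered 1.

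Levels were expressed as −ΔCt, the mean Ct of the 4 U6 wells of the same card and pool minus the Ct of the assay, which is on a log2 scale on which a higher value means more miRNA. Over the pools numbered 2 and 3 the mean −ΔCt was −4.17 for miR-29a, −4.42 for miR-26a, −7.31 for miR-26b, −7.55 for miR-29c and −11.61 for miR-29b. These levels compare assays whose amplification efficiencies are not known, and whether each detects its own member alone was not tested.

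**Figure D1:**
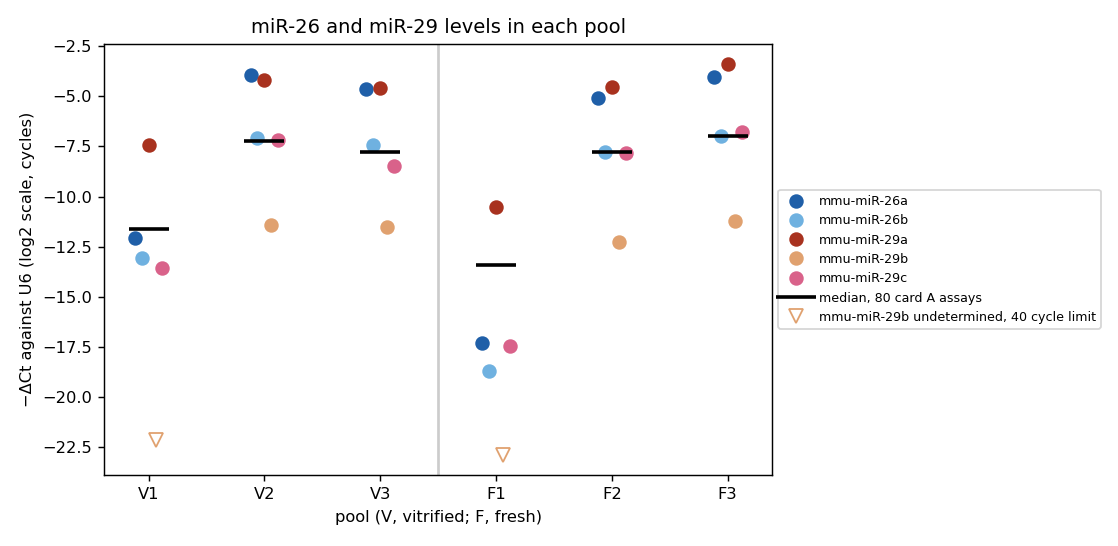
Level of each member in each pool, as −ΔCt against U6 in cycles on a log2 scale; points are single wells, black bars are the median of the 80 card A assays determined in all pools, and open triangles mark the 40 cycle limit where miR-29b was undetermined. In V1 and F1, miR-26a goes from near the top of the members to below the card A median, while miR-29a remains above it.

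Against U6, the members were lower in the pool numbered 1 than in the mean of pools 2 and 3 in both groups, by an amount that differed among members. For miR-26a the drop in −ΔCt was 7.81 in the vitrified and 12.77 in the fresh group. This was the largest fresh drop of the 80 card A assays determined in all pools, members included, and the vitrified drop was larger than that of 97.5% of them. Assays undetermined in V1 or F1 are outside these 80, so that larger drops can be missing from the ranks. In V1 the card A assays mmu-miR-451 and mmu-miR-10b, both undetermined in F1, dropped by 10.01 and 9.08. The drop of miR-26b was 5.84 in the vitrified and 11.36 in the fresh group, larger than for 77.5% and 97.5% of the 80 assays. For miR-29c the drops were 5.77 and 10.19, larger than for 76.25% and 92.5%. For miR-29a the drops were 3.02 and 6.59, close to the medians of the 80 assays, 3.85 in the vitrified and 6.08 in the fresh group. For miR-29b, a well with no signal by 40 cycles sets a drop of at least 10.72 in the vitrified and at least 11.16 in the fresh group. The fresh drop was the larger one for 69 of the 80 assays, with a median excess of 2.30, and it was larger for each of the 4 members among them. These are descriptions of 1 pool per group.

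The snoRNA controls were low in the same pools. For snoRNA202 the raw Ct rose by 8.04 cycles in V1 and 9.34 in F1, and that of snoRNA135 by 8.53 and 12.56, from the mean of pools 2 and 3. Against the mean of these 2 snoRNAs, a reference chosen for this comparison after the data were seen, the drop of miR-26a was 0.31 in the vitrified and 2.12 in the fresh group. The drop of miR-26b was −1.66 and 0.72, that of miR-29c −1.73 and −0.45, and that of miR-29a −4.48 and −4.05, a negative drop being a higher level in pool 1. A change of reference shifts all assays of a pool equally, so that the order of the assays by their drops within a group is the same.

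**Figure D2:**
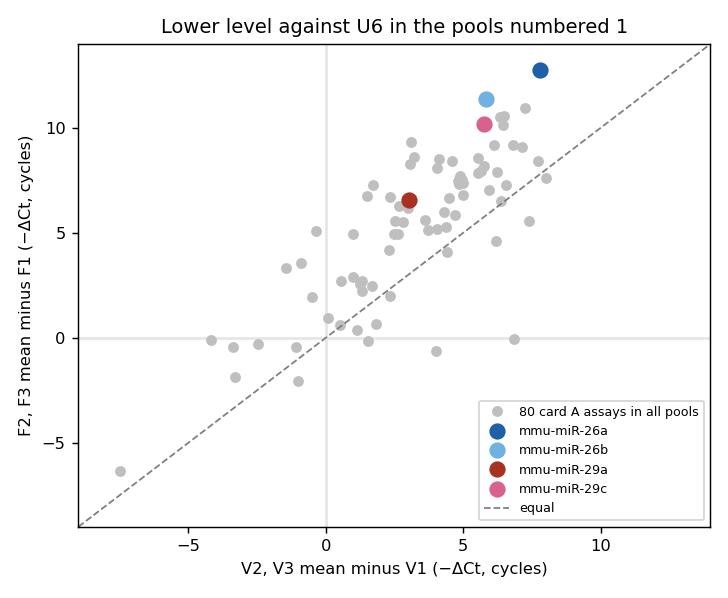
Drop in −ΔCt against U6 from the mean of pools 2 and 3 to pool 1, in cycles, in the vitrified group (x axis) and the fresh group (y axis), for the 80 card A assays determined in all pools (grey) and the 4 members among them (coloured). The members miR-26a, miR-26b and miR-29c lie at the upper right edge of the cloud, miR-29a lies in its middle, and 69 of the 80 points are above the dashed line of equal drops.

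The order of the members was tested within pools, where pool and reference cancel. With 6 pools an exact test by exchange of signs can give a 2-sided p of 0.0312 at the least, and after Benjamini-Hochberg adjustment over the 10 pairs of members the smallest adjusted p that this design allows is 0.0521, so that no pair could pass 0.05. Within the miR-26 family, miR-26a was above miR-26b in 6 of 6 pools, by 0.999, 3.12 and 2.81 cycles in V1, V2 and V3 and by 1.42, 2.66 and 2.98 in F1, F2 and F3. The mean difference was 2.33 ± 0.89 cycles (SD, n = 6, exact p = 0.0312, adjusted p = 0.0781). Both values from the pools numbered 1 were the lowest, and without them the mean was 2.89 ± 0.20 (SD, n = 4).

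Within the miR-29 family, miR-29a was above miR-29c, from which it differs by a single base, in 6 of 6 pools. The differences were 6.19, 2.98 and 3.89 cycles in V1, V2 and V3 and 6.93, 3.27 and 3.40 in F1, F2 and F3, with a mean of 4.44 ± 1.68 (SD, n = 6, exact p = 0.0312, adjusted p = 0.0781). Both values from the pools numbered 1 were the highest, and without them the mean was 3.38 ± 0.38 (SD, n = 4). Where miR-29b was determined, it was below miR-29a by 7.44 ± 0.44 cycles, and its difference from miR-29c, miR-29b minus miR-29c, was −4.06 ± 0.69 (SD, n = 4 each, exact p = 0.125 and adjusted p = 0.139 for each, with 0.125 the smallest p that 4 pools allow).

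Across the families, miR-26b and miR-29c could not be ordered. Their difference had a mean of 0.03 ± 0.77 cycles (SD, n = 6, exact p = 0.906, adjusted p = 0.906), with miR-26b the higher in 4 of 6 pools. The top pair, miR-26a and miR-29a, differed by −0.25 ± 0.42 cycles in pools 2 and 3 (SD, n = 4, miR-26a minus miR-29a), and by −4.69 in V1 and −6.78 in F1. Over all pools that difference was −2.08 ± 2.93 (SD, n = 6, exact p = 0.0938, adjusted p = 0.139). The order of this pair therefore rested on V1 and F1, whereas miR-26b was below miR-29a in all 6 pools, with a difference of −4.41 ± 2.13 cycles (SD, n = 6, exact p = 0.0312, adjusted p = 0.0781) and, in pools 2 and 3, of −3.15 ± 0.36 (SD, n = 4).

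**Figure D3:**
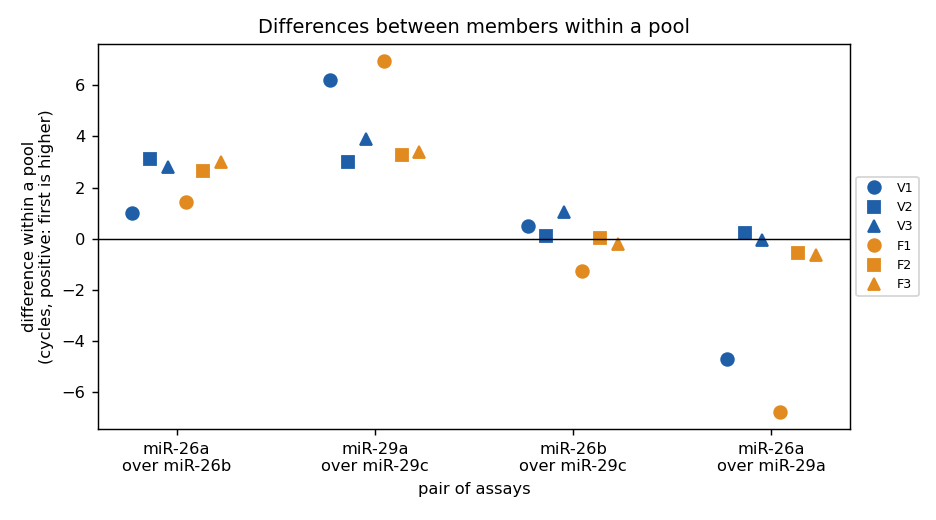
Difference in cycles between 2 members within each pool, positive where the first is higher; vitrified pools are blue, fresh pools orange, and circles, squares and triangles are pools 1, 2 and 3. The circles of pool 1 stand apart from the squares and triangles for miR-26a over miR-26b, miR-26a over miR-29a and miR-29a over miR-29c. The points of miR-26b over miR-29c are scattered around 0.

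No member passed the test between vitrified and fresh blastocysts. Of 335 assays with at least 2 determined wells per group, 0 (0%) had an adjusted p under 0.05 in limma and 1 (0.299%) had an unadjusted p under 0.05. With the replicate number as a block, 4 of 330 had an unadjusted p under 0.05 and 0 an adjusted one. With pools 2 and 3 alone, 16 of 326 had an unadjusted p under 0.05 and 0 an adjusted one. None of the 5 members was among them in these 3 fits, and each had an adjusted p of 0.998 over all pools without the block and 0.989 with it.

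The −ΔCt of miR-26a was −12.10, −3.95 and −4.63 in V1, V2 and V3 and −17.32, −5.10 and −4.01 in F1, F2 and F3. Its mean was −6.89 ± 4.52 in vitrified and −8.81 ± 7.39 in fresh pools (SD, n = 3 each), a log2 difference of 1.92 with a standard error of 4.05 and an exact permutation p of 0.6, where 3 against 3 pools allow 0.1 at the least. The groups overlapped. The −ΔCt of miR-26b was −13.09, −7.07 and −7.44 in the vitrified and −18.74, −7.76 and −6.99 in the fresh pools, with a log2 difference of 1.96, a standard error of 3.48 and an exact permutation p of 0.7.

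For miR-29a the −ΔCt was −7.40, −4.18 and −4.59 in the vitrified and −10.54, −4.54 and −3.36 in the fresh pools, a log2 difference of 0.75 with a standard error of 2.09 and an exact permutation p of 0.9. For miR-29c it was −13.59, −7.17 and −8.48 against −17.47, −7.80 and −6.76, a log2 difference of 0.93 with a standard error of 3.22 and an exact permutation p of 0.9. Both groups overlapped for each of these 2 members. For miR-29b the values were −11.41 and −11.51 in V2 and V3 and −12.30 and −11.22 in F2 and F3, a log2 difference of 0.30 with a standard error of 1.18, and the exact permutation p was 1, where 0.333 is the smallest that 2 against 2 pools allow.

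All 5 members had a higher mean in the vitrified pools, with a median log2 difference of 0.93, against −0.05 over the 335 assays, of which 48.1% were higher. The standard errors of the members had a median of 3.22, against 1.51 over all assays. Each of the members measured in pool 1 was higher in V1 than in F1, by 5.22 for miR-26a, 5.64 for miR-26b, 3.14 for miR-29a and 3.88 for miR-29c on the −ΔCt scale. Without F1 the differences of these 4 turned to −2.34, −1.83, −1.44 and −2.46, and without V2 that of miR-29c was −0.36. Without V1 they were 4.52, 3.91, 1.76 and 2.86. In the pools numbered 2 and 3 the log2 difference was 0.26 for miR-26a, 0.12 for miR-26b, −0.44 for miR-29a, 0.30 for miR-29b and −0.54 for miR-29c. The exact permutation p was 0.667 or 1 for each, and 326 assays had a median of −0.02 there. The direction of miR-29a, miR-29b and miR-29c also turned with snoRNAs in place of U6, to −1.11, −0.52 and −0.93, and with that reference miR-26a was at 0.05 and miR-26b at 0.10.

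**Figure D4:**
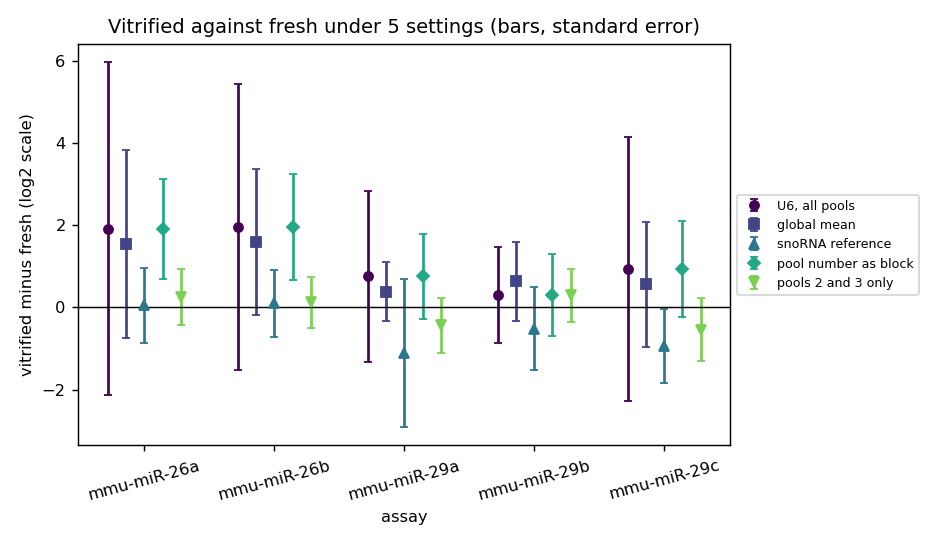
Vitrified minus fresh on the log2 scale for each member under 5 settings, with bars of 1 standard error from limma. For miR-29a and miR-29c the sign changes when the pools numbered 1 are left out or snoRNAs replace U6, and the standard errors are smallest for the pools numbered 2 and 3.

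The balance among members was compared without any reference RNA. Of the 6 pairs of members determined in all pools, the vitrified and fresh values did not overlap for 1, miR-26b over miR-29c, against 92 of 3160 pairs (2.91%) of the card A assays determined in all pools. The difference was 0.50, 0.09 and 1.04 cycles in V1, V2 and V3 and −1.26, 0.04 and −0.23 in F1, F2 and F3, so that V2 and F2 lay next to each other. The vitrified mean exceeded the fresh one by 1.03 cycles (exact permutation p = 0.1, the smallest possible, adjusted p = 0.833 over the 10 pairs). In pools 2 and 3 it exceeded it by 0.66 cycles, and there 6 of the 10 pairs did not overlap between the groups, among 7124 of 19110 pairs (37.3%) of the card A assays determined in these 4 pools. Over all pools, the other 9 pairs had adjusted p-values from 0.833 to 1. Among these, miR-26a over miR-26b differed between vitrified and fresh pools by −0.04 cycles and miR-29a over miR-29c by −0.18.

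In the pools numbered 2 and 3 the members moved within a narrow range, and their order over pools was set beside those of the marker lists. The level of miR-26b and of miR-29b was highest in F3, followed by V2, V3 and F2, which was also the order of the summed level of the stroma and smooth muscle list of 6 assays for miR-10b, miR-143, miR-145, miR-199a-3p and miR-214 (−1.26 in F3, −3.19 in V2, −3.57 in V3 and −4.17 in F2, log2 of the summed level against U6). Within that list, miR-143, miR-145, miR-199a-3p and miR-10b on card A had this order singly. The assay for miR-214 had the order F3, V2, F2 and V3. On card B, miR-10b was highest in V2 (−11.37), followed by V3 (−12.15), F3 (−13.02) and F2 (−13.07). The level of miR-29a and of miR-29c was highest in F3, followed by V2, F2 and V3, the order of the 2 endothelial assays for miR-126 (−2.85, −3.73, −5.10 and −5.21). The level of miR-26a was highest in V2, followed by F3, V3 and F2. Assays outside these lists had the same orders, namely mmu-miR-125b-5p that of miR-26b, mmu-miR-16 and mmu-miR-222 that of miR-29a, and rno-miR-196c that of miR-26a. How many of all assays had each order was not counted. The embryonic list ran the other way for F3 and V2, with −5.32 in V3, −5.58 in F2, −7.23 in F3 and −7.51 in V2. The summed level of the blood list of miR-451, miR-144, miR-142-3p, miR-223 and miR-150 ranged from −4.55 to −4.05 in these 4 pools. Its single assays moved in different directions, and miR-144 was undetermined in V2. From V3 to F3, miR-451 went from −4.94 to −6.58 and miR-142-3p from −6.03 to −7.86. Over the same pools miR-223 went from −7.47 to −7.69 and miR-150 from −7.20 to −5.06.

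In V1 all 6 stroma and smooth muscle assays and 4 of 5 blood assays were determined, with summed levels of −10.36 and −7.17, whereas 0 of 8 embryonic assays were. In F1 the same lists had 3 of 6 and 3 of 5 assays determined, at −11.88 and −6.23. The endothelial list had 1 of 2 assays in each of these pools, at −9.73 in V1 and −11.59 in F1. The liver marker miR-122 had a Ct in V3 and F2 alone, at 32.87 and 32.85. The part of other cell types in the levels of miR-26 and miR-29 was not tested.

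**Figure D5:**
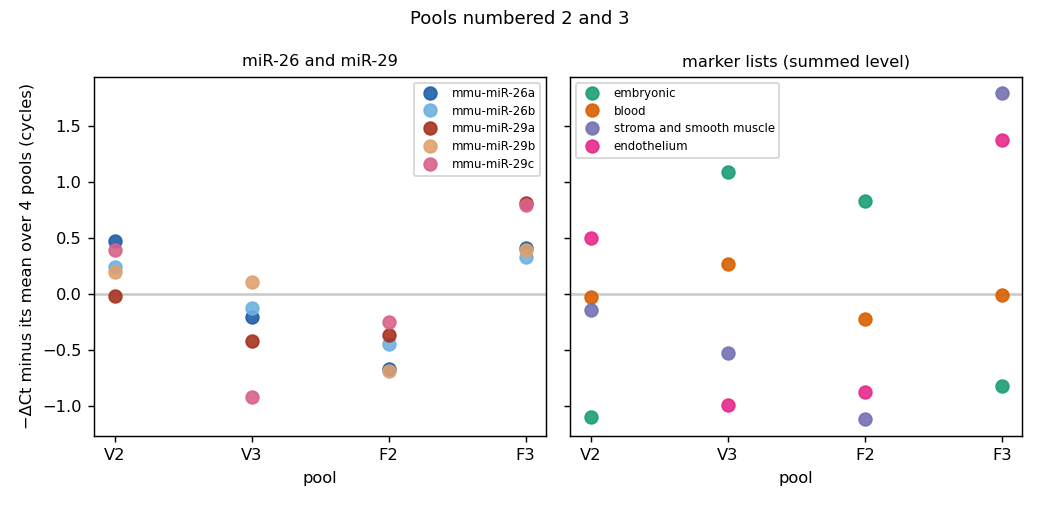
Level in each of the 4 pools numbered 2 and 3 minus its mean over these pools, in cycles, for the 5 members (left) and for the summed level of each marker list (right). The members are at their lowest in F2 or V3 and at their highest in F3 or V2, the pools with the lower values of the embryonic list. Assays outside these lists, such as mmu-miR-16 and rno-miR-196c, had such orders too.

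The opposite arms of the same hairpins were measured by 6 assays on card B. The strongest, mmu-miR-29b#, was determined in all 6 pools, with a raw Ct of 31.86, 28.19 and 27.88 in V1, V2 and V3 and 29.18, 28.20 and 27.08 in F1, F2 and F3. In V1 and F1 it was therefore measured where mmu-miR-29b itself was not. In each of the other pools its −ΔCt was above that of mmu-miR-29b, and mmu-miR-29b minus mmu-miR-29b# was −0.94 in V2, −0.14 in V3, −1.03 in F2 and −1.30 in F3, with the assays on separate cards. Its drop in pool 1 was 3.29 in the vitrified and 1.71 in the fresh group, against medians of 1.26 and 1.83 over the 42 card B assays determined in all pools.

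Apart from rno-miR-29b-1# in V3, the other opposite arms came up late or not at all. The raw Ct of hsa-miR-26b# was between 31.14 and 34.91 in 5 pools and that of rno-miR-29c# between 31.64 and 35.03 in 5. The assay hsa-miR-29a# had a Ct from 30.32 to 35.36 in the 4 pools numbered 2 and 3. Both hsa-miR-29b-2# and rno-miR-29b-1# were determined in 3 pools. The raw Ct of rno-miR-29b-1# was 29.07 in V3, against 37.04 in V2 and 36.87 in F2. That of hsa-miR-29b-2# was 32.97 in V2, 33.88 in F2 and 35.82 in F3. Of the 4 opposite arms that could be tested, mmu-miR-29b#, hsa-miR-26b# and rno-miR-29c# had log2 differences, vitrified minus fresh, of −0.85, −0.998 and −1.36 with standard errors of 1.29, 1.62 and 1.57. For hsa-miR-29a# the difference was 0.43 with a standard error of 2.39. All had an adjusted p of 0.998 in limma. One of the pools numbered 1 alone entered the fit for hsa-miR-26b# (F1) and for rno-miR-29c# (V1). In pools 2 and 3 the difference was −0.33 for mmu-miR-29b#, −1.17 for hsa-miR-26b# and −1.11 for rno-miR-29c#.

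The other miRNAs known to target enzymes of DNA methylation or demethylation, or their partners, had 9 assays. They were mmu-miR-148a, mmu-miR-148b and mmu-miR-152, which share a seed and are known to target the maintenance methyltransferase, 2 assays of miR-143 and 2 of the miR-101 family, hsa-miR-22 and mmu-miR-767. Of the 7 that could be tested, 0 had an adjusted and 0 an unadjusted p under 0.05 in limma, against the 0% and 0.299% of all assays. In the fit 2 were higher and 5 lower in vitrified pools, with a median log2 difference of −1.74. For 4 of them, mmu-miR-148a, mmu-miR-148b, mmu-miR-152 and mmu-miR-101a, V1 was determined and F1 was not, so that the late well of V1 entered the vitrified mean alone. In the pools numbered 2 and 3 their differences were 0.43, −0.21, −0.26 and −0.35.

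The raw Ct of miR-148a was 32.53, 25.07 and 25.35 in V1, V2 and V3 and 25.68 and 25.09 in F2 and F3. That of miR-152 was 32.24, 24.96 and 25.35 in the vitrified pools and 25.07 and 24.19 in F2 and F3. Both were at a Ct close to that of miR-26b and miR-29c, and their drops in V1 were 6.54 and 6.31, beside 5.84 and 5.77 for those 2 members. The assay mmu-miR-143, also in the stroma and smooth muscle list, had a raw Ct of 31.87, 22.96 and 23.77 in V1, V2 and V3 and 31.10, 23.62 and 21.15 in F1, F2 and F3. Its drops of 7.72 in the vitrified and 8.41 in the fresh group were below those of miR-26a. The assay mmu-miR-767 was determined in no pool.

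The assays most like each member over the 6 pools were found by the root mean square difference of −ΔCt after each was centred on its own mean, among 76 card A assays other than the members. For miR-26a these were rno-miR-196c (0.69), mmu-miR-19b (0.93) and mmu-miR-20b (0.96), where the median assay was at 2.92. The nearest to miR-26b were mmu-miR-20b (0.43), mmu-miR-19b (0.45) and rno-miR-196c (0.56), the same 3 assays in another order. For miR-29a they were mmu-miR-222 (0.41), mmu-miR-16 (0.43) and mmu-miR-210 (0.48), and for miR-29c mmu-miR-106b (0.50), mmu-miR-125b-5p (0.52) and mmu-miR-20b (0.56).

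Between members this difference was smallest across the families, at 0.71 for miR-26b and miR-29c, followed by 0.82 for miR-26a and miR-26b, while miR-29a and miR-29c were 1.54 apart and miR-26a and miR-29a 2.67. In pools 2 and 3 alone it was 0.17 for miR-26a and miR-26b, 0.31 for miR-26b and miR-29a and 0.33 for miR-29a and miR-29c. It was 0.36 for miR-26a and miR-29a and 0.46 for miR-26a and miR-29c. The largest, 0.48, was that of miR-26b and miR-29c, the pair closest over the 6 pools. Of the pairs with a shared seed, miR-26a and miR-26b were thus the closest, and miR-29a and miR-29c lay among the pairs without one. In pools 2 and 3 the distances from the members to the named assays lay between 0.21 (miR-26b and mmu-miR-20b) and 0.62 (miR-29c and mmu-miR-20b). These values describe 6 and 4 pools, and the first set includes the low values of V1 and F1.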

How the data were processed

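Small RNA of 6 pools of blastocysts was measured by real-time PCR on TaqMan cards. Per the labels and methods, the authors extracted total RNA with an RNeasy Mini Kit, reverse transcribed 30 ng, pre-amplified the cDNA and ran 40 cycles. They deposited raw Ct values, which are another kind of unit than counts, in which 1 cycle is a log2 step and a higher value means less template. Their table of fold changes was not used. No genome build is named for these assays, and sequences and positions are from RefSeq, GRCm38.p6.

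A well without a Ct, or with 40 or more, was left out. The −ΔCt took the mean of 4 U6 wells of the same card and pool. Group means were compared with limma 3.58.1 in R 4.3.3, 2-sided, over 335 assays with at least 2 determined wells per group, with Benjamini-Hochberg adjustment, and with exact permutation tests over pools. Pairs of members were compared within pools by exchange of signs. The same fit was also run on simulated data of known changes. Their spread was set below the SDs of miR-26a, miR-26b, miR-29a and miR-29c here. Python 3.11.15 with pandas 2.3.3 was used for all else. No 2 pools of a group were identical for any assay. The depth of such data is the Ct itself, and 3 pools per group limit the precision.

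Deviations of same-numbered pools from their group means had correlations of 0.80, 0.78 and 0.67 over 122 assays, and a fit with the number as a block was made. Deviations within a group sum to 0, so the outlying pools numbered 1 enter all of these values. Without those pools, V2 minus V3 against F2 minus F3 had a correlation of −0.35 over 326 assays. Pools 2 and 3 therefore did not deviate together by number. The labels give only numbers and do not say that same-numbered pools were prepared together. The genes named are the members, the opposite arms, the other miRNAs linked to DNA methylation, the controls, the 3 most alike assays per member and the marker lists. The members and all lists were chosen with earlier results of these data known. Alternatives were other references, other Ct limits, imputed wells, other variance models, the block, pools 2 and 3 alone and each pool left out.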

Additional observations from a re-analysis of the deposited data

How the results depend on the processing

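No assay had an adjusted p under 0.05 in any of the 18 alternatives run in limma, and the number with an unadjusted p under 0.05 went from 0 to 24. With the replicate number as a block the difference of miR-26a stayed at 1.92 with a standard error of 1.22 (adjusted p = 0.989), and the block changed no adjusted call. Over the alternatives the adjusted p of the members lay between 0.715 and 0.998. Of 85 member values, 74 kept their sign and 11 reversed. With a Ct limit of 35, which left out the F1 well of miR-26b, miR-26b was at −1.83, its value without F1. With snoRNAs as reference miR-29a was at −1.11, miR-29b at −0.52 and miR-29c at −0.93, and in pools 2 and 3 alone miR-29a was at −0.44 and miR-29c at −0.54. With 1 pool left out, miR-26a ranged from −2.34 to 4.52, miR-26b from −1.83 to 4.05, miR-29a from −1.44 to 2.15 and miR-29c from −2.46 to 2.89, and miR-29b gave no value without V2, V3, F2 or F3 or in assays determined in all 6 pools.

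Of 90 within-pool pair values, 80 kept their sign and side of the threshold. With undetermined wells set to 40, 8 pairs had an adjusted p of 0.0391 by exchange of signs. For miR-26a they were those over miR-26b (2.33), miR-29b (7.41) and miR-29c (2.36). For miR-26b they were those over miR-29a (−4.41) and miR-29b (5.07). For miR-29a they were those over miR-29b (9.49) and miR-29c (4.44), and the last was miR-29b over miR-29c (−5.04). A well set to 40 lies below every determined member of its pool, so the filling fixed the signs of the miR-29b pairs in V1 and F1. The pairs without miR-29b kept their values, and their adjusted p fell only through the filled pairs. No order of the members is drawn from these calls. With 1 pool left out, miR-26b over miR-29c ranged from −0.17 to 0.29. Of 100 vitrified minus fresh pair values, 16 reversed. With undetermined wells set to 40, miR-26a over miR-29b was at 1.47, miR-26b over miR-29b at 1.52, miR-29a over miR-29b at 0.31 and miR-29b over miR-29c at −0.49. With a Ct limit of 35, which left out the F1 well of miR-26b, miR-26b over miR-29a was at −0.38, its value without F1. In pools 2 and 3, miR-26a over miR-26b was at 0.14 and miR-29a over miR-29c at 0.10. With 1 pool left out, miR-26a over miR-26b ranged from −0.51 to 0.61, miR-26a over miR-29a from −0.90 to 2.76, miR-26a over miR-29b from −0.32 to 0.26, miR-26b over miR-29a from −0.38 to 2.15 and miR-29a over miR-29c from −1.10 to 1.02. Beyond the wells that these settings leave out or fill, the cause of the reversals was not tested.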
